A study of Mus musculus with 3 samples.

Results

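Neat1, Malat1, Gas5, Snhg1, H19 and Meg3 are long noncoding RNAs, transcripts that are not translated into protein. They were taken as every non-control spot of 3 microarrays that carried one of these 6 gene names. This gave 11 probes of 60 bases, each printed on 1 spot, out of 39429 probes on 43020 non-control spots. The 6 names were selected on their measured signals on these same arrays, that is on their levels and their differences between the arrays, so the values below describe the selected RNAs and no test supports them.

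The arrays were hybridised with total RNA of hepatocytes, which had been isolated by collagenase digestion from the livers of overnight-fasted male wild-type C57BL/6 mice aged 22 weeks. Feeding began when the mice were 6 weeks old and lasted 16 weeks. One array, called standard diet here, came from mice fed a standard diet, for which the labels list no injection. Another, called HFD-IgG, came from high-fat-fed mice given control IgG into the peritoneum, and the last, called anti-VLA-4, from high-fat-fed mice given an antibody that blocks VLA-4, an integrin of leukocytes. IgG and antibody were given 2 times a week for 6 weeks, starting after 10 weeks of diet. The number of mice behind an array is not given in the labels.

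The 6 RNAs fall into 3 kinds. Neat1 and Malat1 stay in the nucleus: the long isoform of Neat1 is the scaffold of paraspeckles, nuclear bodies that hold RNA-binding proteins such as Nono and Sfpq, and Malat1 collects in nuclear speckles with splicing factors. Gas5 and Snhg1 are host genes, whose introns carry small nucleolar RNAs that guide the modification of ribosomal RNA, while their spliced RNAs are short-lived because translation exposes them to nonsense-mediated decay. H19 and Meg3 are imprinted, are transcribed from the maternal chromosome, and are known for high levels in fetal tissues, including fetal liver for H19, and low levels in adult liver.

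Each group had 1 array. The differences below therefore have no replicates to check them and carry no p-value, and how far mice, cell preparations and hybridisations vary is not known. Levels are the processed spot signal divided by the 75th percentile of the signals on that array, called relative signal below, and the error beside a level is the one the scanner software gave to that single spot. A probe was called higher or lower when it differed by at least 2-fold, a log2 difference of 1. Of all spots, 57.3% to 66.5% were well above background on an array, 0 were saturated, and none of the 11 spots was marked as an outlier on any array. All 14 hepatocyte markers checked, among them Alb and Apoa1, were well above background on all 3 arrays, with summed relative signals of 5378, 5120 and 5119 on the standard-diet, HFD-IgG and anti-VLA-4 arrays. By gene, 0 of the 14 were at least 2-fold higher with HFD-IgG than with standard diet, and 1, Cps1, was 2.20-fold lower. Over all genes 20.4% were higher and 2.41% lower. The median log2 difference of the 14 was -0.17, and with normexp background correction 7 of them were at least 2-fold lower. The standard-diet and HFD-IgG arrays lay on one slide and the anti-VLA-4 array on another, and the effects of slide and of antibody cannot be told apart. Diet and IgG injection likewise differed together between the standard-diet and HFD-IgG arrays.

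The probe sequences are what each signal rests on, and are printed because their makeup bears on how they compare with other probes of these arrays. They are written 5′ to 3′ as the array files give them, for 10 of the 11 probes, with the longest unbroken stretch of purines (A or G) in capitals.
Neat1: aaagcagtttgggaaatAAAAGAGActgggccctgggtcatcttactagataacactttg
Malat1: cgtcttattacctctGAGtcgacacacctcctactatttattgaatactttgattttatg
Gas5 probe 1: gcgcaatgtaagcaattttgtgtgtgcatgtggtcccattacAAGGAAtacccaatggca
Gas5 probe 2: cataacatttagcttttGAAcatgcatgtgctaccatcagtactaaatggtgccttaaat
Gas5 probe 3: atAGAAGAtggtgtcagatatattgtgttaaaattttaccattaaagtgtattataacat
Snhg1: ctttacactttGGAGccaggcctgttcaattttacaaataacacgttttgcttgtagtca
H19 probe 1: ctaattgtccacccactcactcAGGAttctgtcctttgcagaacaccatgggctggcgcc
H19 probe 2: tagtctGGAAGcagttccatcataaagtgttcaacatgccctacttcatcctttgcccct
Meg3 probe 2: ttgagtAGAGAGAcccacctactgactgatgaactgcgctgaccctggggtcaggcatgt
Meg3 probe 3: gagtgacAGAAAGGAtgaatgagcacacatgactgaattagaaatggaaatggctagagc
Purines made up 35% of the Malat1 probe, 58.3% of the Neat1 probe and 71.7% of Meg3 probe 3, and the longest purine stretch of the printed probes ran from 3 to 8 bases. The names Neat1, Malat1, Snhg1 and Meg3 were matched to RefSeq through the accession of their probes, and Gas5 and H19 are named as on the array.

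Neat1, Malat1 and the 2 upstream Gas5 probes were 2.68-fold to 6.90-fold lower with HFD-IgG than with standard diet, and Neat1 and these Gas5 probes were 2.27-fold to 5.69-fold higher with anti-VLA-4 than with HFD-IgG. Gas5 probe 3 and Snhg1 stayed within 2-fold in every comparison. H19 and Meg3 were close to background, and 1 of their 5 probes, H19 probe 2, was well above it on more than 1 array. The plot of the levels by probe shows these values side by side.

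**Figure D1:**
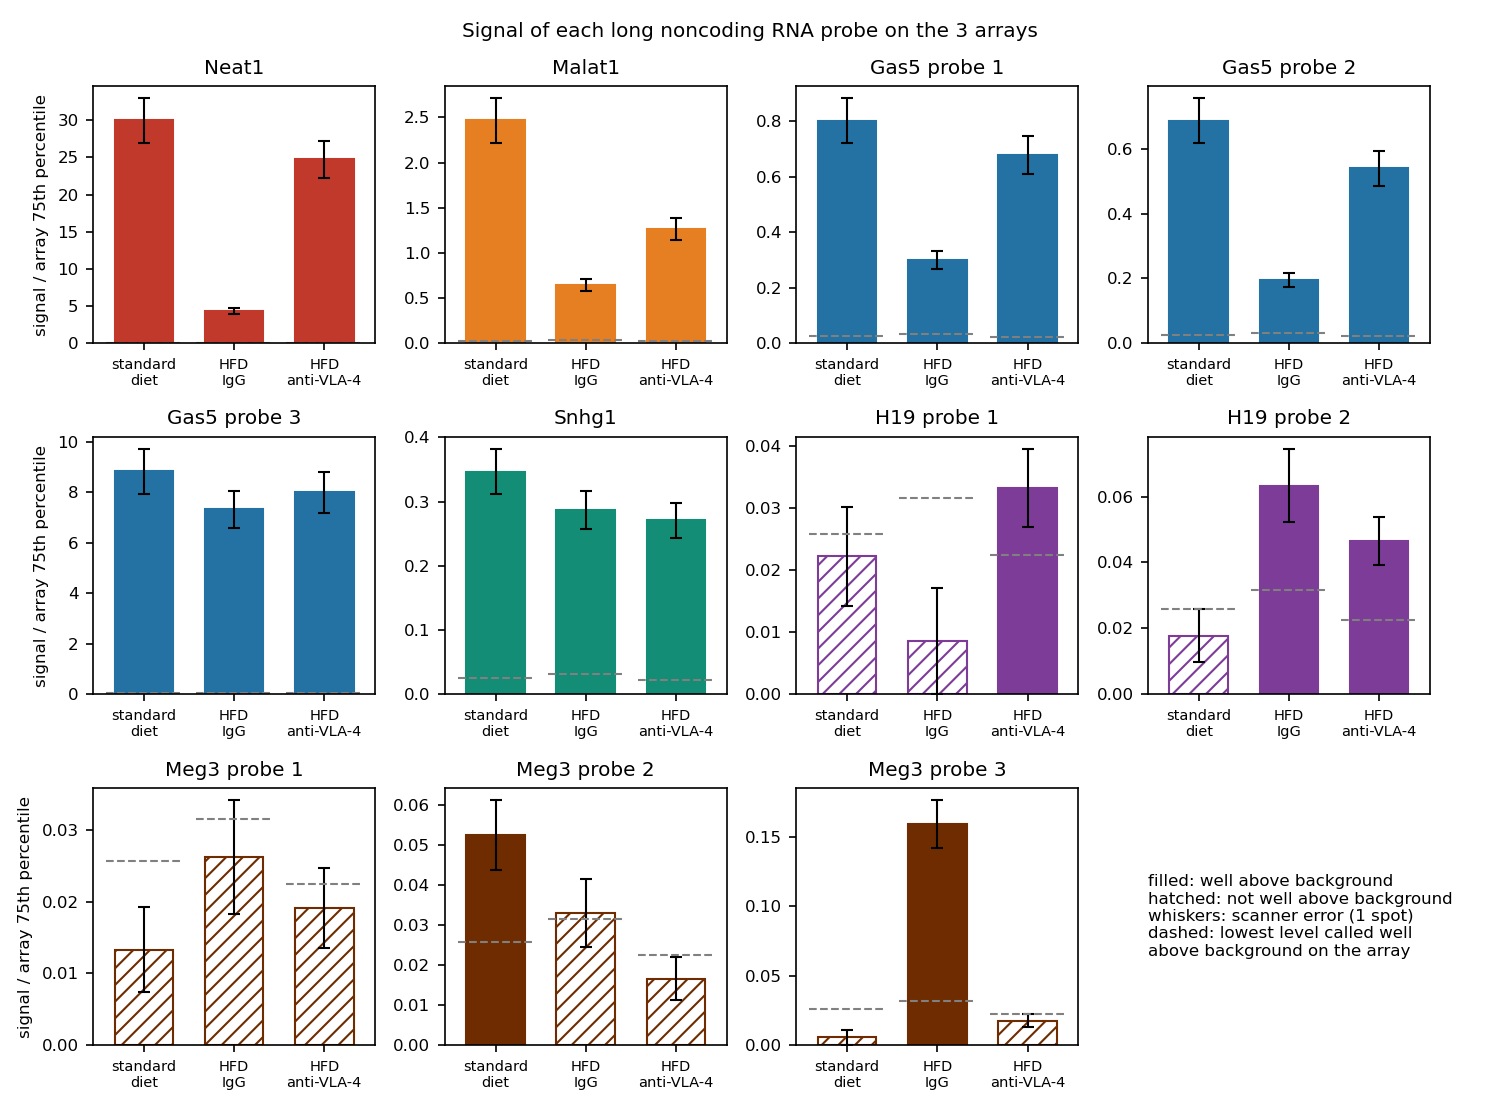
Relative signal (processed signal over the array's 75th percentile, linear axes that start at 0 and differ between panels) of the 11 probes on the standard-diet, HFD-IgG and anti-VLA-4 arrays; filled bars are well above background, hatched bars are not, whiskers are the scanner error of 1 spot, and dashed lines are the lowest level well above background on that array. Neat1 stands at 30.0, 4.35 and 24.7, and Malat1 and Gas5 probes 1 and 2 are also lowest on the HFD-IgG array, while Gas5 probe 3 runs from 7.32 to 8.83.

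In HFD-IgG over standard diet, 9 of the 11 probes could be compared, of which 6 were well above background on both arrays and 3 on one, so that their fold is a lower bound. Of these 9 probes, 4 were at least 2-fold lower, beside 2.34% of all 26975 probes compared, and 2 were at least 2-fold higher, beside 19.7%. Their median log2 difference was -0.67, beside 0.03 over all probes. The 381 other probes designed on noncoding RefSeq transcripts were lower in 3.41% and higher in 20.7%. Between the anti-VLA-4 and HFD-IgG arrays, 3 of 9 probes were at least 2-fold higher with anti-VLA-4, beside 1.88% of 27704 probes, and 1 was lower, beside 16%. The median was 0.13, beside -0.07 over all probes, and of the 403 other noncoding probes 1.99% were higher and 17.6% lower. In anti-VLA-4 over standard diet, 0 of 9 probes were higher, beside 7.56% of 25066 probes, and 1 was lower, beside 3.26%, with a median of -0.28 beside 0.00. Of the other noncoding probes 5.87% were higher and 3.91% lower there. Since the RNAs were chosen with these signals known, nothing is read from their share against that of all probes. The 3 comparisons share arrays in pairs, so a low value on the HFD-IgG array enters the first and the second with opposite signs.

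Neat1 was measured by 1 probe at chr19:5842564-5842623 (mm9, minus strand), which starts at base 2855 of the transcript it was designed on. Its relative signal was 30.0 (scanner error 3.0) with standard diet, 4.35 (0.435) with HFD-IgG and 24.7 (2.47) with anti-VLA-4. The level was thus low on 1 of the 3 arrays. With HFD-IgG it was 6.90-fold lower than with standard diet (log2 difference -2.79, scanner error 0.20), and 21 of 21336 probes measured on both arrays lay at or below that difference. Neat1 was 5.69-fold higher on the anti-VLA-4 array than on the HFD-IgG array (log2 difference 2.51), and 6 of 22507 probes lay at or above that. In anti-VLA-4 over standard diet the log2 difference was -0.28, little more than its scanner error of 0.20. With 1 probe, the long isoform of Neat1 was not told apart from other isoforms.

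The spots around the Neat1 spot and the probes of like makeup are given beside its difference as a description, since Neat1 was selected on these values. The 61 measured spots within 5 rows and columns of it had a median log2 difference of -0.08 in HFD-IgG over standard diet, beside -0.05 over all spots, and in anti-VLA-4 over HFD-IgG the median of 62 spots was -0.01, beside -0.04. The part of position or makeup in the Neat1 difference was not tested. In HFD-IgG over standard diet the 4263 probes with over 55% and up to 60% purines had a median of 0.17, and 8 of them, Neat1 included, were at or below Neat1. The 4317 such probes of anti-VLA-4 over HFD-IgG had a median of -0.22, and 6 were at or above Neat1.

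The 5 genes with the pattern most like that of Neat1 were taken by the distance in the first 2 log2 differences among 11775 named genes well above background on all arrays. The nearest was Igfbp1, which encodes an IGF-binding protein that insulin represses in liver, at a distance of 0.36. Its relative signals were 61.2, 7.31 and 35.4 on the standard-diet, HFD-IgG and anti-VLA-4 arrays. It was therefore 8.37-fold lower and then 4.85-fold higher in the same comparisons. Cish, a feedback inhibitor of cytokine and growth hormone receptor signalling, followed at 0.85 (1.78, 0.234 and 0.743), and Slco1a1, an organic anion transporter of hepatocytes, at 1.06 (4.66, 0.919 and 2.68). Sqle, an enzyme of cholesterol synthesis, lay at 1.29 and Chsy3, an enzyme of chondroitin synthesis, at 1.45. With normexp background correction Sqle was -0.76 and 0.64 and Cish 0.57 in anti-VLA-4 over HFD-IgG, all under 2-fold, and Chsy3 turned to 1.04 and -0.23.

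The proteins that build paraspeckles did not share the size of the Neat1 difference. Of 20 genes for paraspeckle proteins, 0 were at least 2-fold higher and 0 lower in each of the 3 comparisons, beside 20.4% and 2.41% of 22000 genes in HFD-IgG over standard diet. Over all genes, anti-VLA-4 was higher in 1.9% and lower in 16.5% against HFD-IgG, and higher in 7.98% and lower in 3.39% against standard diet. Their medians were -0.22, 0.11 and -0.07, beside 0.04, -0.06 and 0 over all genes. The core proteins of the body are named here after their values were seen. Nono had relative signals of 15.1, 12.7 and 12.3, and Sfpq of 2.51, 2.32 and 2.43. Pspc1 stood at 0.163, 0.115 and 0.179, a log2 difference of -0.51 and then 0.64 (in the first, -1.22 with quantile scaling and 1.21 with normexp), and the largest of the list in HFD-IgG over standard diet was Taf15 at -0.65. With other processing some of the 20 passed 2-fold: 3 lower under quantile scaling, and 3 higher and 1 lower under normexp.

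Malat1 was also measured by 1 probe, at chr19:5795713-5795772 (mm9, minus strand), starting at base 6899 of its transcript and 46791 bases from the Neat1 probe. Its relative signal was 2.47 (scanner error 0.247) with standard diet, 0.644 (0.0649) with HFD-IgG and 1.26 (0.126) with anti-VLA-4. Malat1 was thus highest on the standard-diet array and lowest on the HFD-IgG array, with the anti-VLA-4 array between them by more than the scanner errors. With HFD-IgG it was 3.83-fold lower than with standard diet (log2 difference -1.94, scanner error 0.20), at which 68 of 21336 probes lay at or below. In anti-VLA-4 over HFD-IgG the difference was 0.97, just under 2-fold and 1.02 with quantile scaling, and in anti-VLA-4 over standard diet it was -0.97. The latter was -1.01 when arrays were scaled to the median of bright spots, meaning those well above background on every array. Its probe was poor in purines, and 973 probes with over 30% and up to 35% purines had a median of -0.13 in the first comparison, with 3 at or below Malat1.

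Splicing factors and other speckle proteins lay nearer to the median of all genes. Of 20 such genes 0 were at least 2-fold different in any comparison, beside 22.9%, 18.4% and 11.4% of all genes. Their medians were -0.38, 0.17 and -0.07. Some of them, named after their values were seen, were also lowest on the HFD-IgG array, each by less than 2-fold. Srsf5, an SR protein of pre-mRNA splicing, had relative signals of 11.5, 6.85 and 12.3, and Son, a scaffold of nuclear speckles, of 7.11, 4.42 and 7.01. Pnisr, an SR-related protein, had 1.18, 0.800 and 1.59. Pnisr was higher with anti-VLA-4 than with standard diet by 0.43 on the log2 scale, unlike Malat1 and Neat1, and Srsf5 by only 0.10. With normexp 4 of the 20 were lower and 1 higher in HFD-IgG over standard diet.

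Some genes beside Neat1 and Malat1 on the chromosome are given as well. Frmd8 had relative signals of 2.90, 2.99 and 2.15, and Slc25a45 of 1.74, 1.63 and 1.67. In HFD-IgG over standard diet these were log2 differences of 0.04 and -0.10. Fam89b at 0.03, Ltbp3 at 0.25 and Ehbp1l1 at 0.58, each by its brightest probe, also stayed within 2-fold, although a second, dimmer Ltbp3 probe was at least 3.66-fold higher. None of these 5 genes, by that probe, was as low on the HFD-IgG array, relative to the standard-diet array, as Neat1 or Malat1.

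The start region of Malat1 is shown with the sequence TGACG, the core of the cAMP response element bound by CREB-type factors, in capitals on either strand. It was taken from RefSeq for GRCm38.p6 at chr19:5802623-5802922 (minus strand), 250 bases before to 50 after the annotated start.
Malat1 start: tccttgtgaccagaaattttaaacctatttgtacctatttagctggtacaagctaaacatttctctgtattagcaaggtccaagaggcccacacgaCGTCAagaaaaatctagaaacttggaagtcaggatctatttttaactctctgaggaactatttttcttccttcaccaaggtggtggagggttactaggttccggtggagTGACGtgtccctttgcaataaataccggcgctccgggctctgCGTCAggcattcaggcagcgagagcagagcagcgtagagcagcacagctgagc
It held 3 matches to TGACG or its complement CGTCA, which began 154, 45 and 3 bases before the start (-154, -45 and -3), and 0 matches to the palindrome TGACGTCA, to TATAAA or to GGGCGG. Of 32851 promoters of the same length in that table, 20.8% held TGACG on either strand, 1.79% TGACGTCA, 13.6% TATAAA and 35.7% GGGCGG. A match is a stretch of letters and says nothing of binding in these cells.

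Gas5 was measured by 3 probes, which did not give the same difference. Probe 1 lies at chr1:162966369-162966428, probe 2 at chr1:162967350-162967409 and probe 3 at chr1:162968608-162968667 (mm9, plus strand). They start at bases 1072, 2053 and 2493 of the array's transcript. Probes 1 and 2 are 981 bases apart both in that transcript and in the genome, so no intron of it lies between them, whereas probes 2 and 3 are 440 bases apart in the transcript and 1258 in the genome.

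Probe 1 had relative signals of 0.803 (scanner error 0.0806), 0.300 (0.0309) and 0.679 (0.0681) on the standard-diet, HFD-IgG and anti-VLA-4 arrays. For probe 2 the values were 0.687 (0.0692), 0.194 (0.0215) and 0.540 (0.0543). Both were lowest on the HFD-IgG array, by 2.68-fold and 3.54-fold against standard diet (log2 differences -1.42 and -1.82, scanner errors 0.21 and 0.22). Both were higher on the anti-VLA-4 array than on the HFD-IgG array, by 2.27-fold and 2.78-fold (1.18 and 1.48). Probe 3 had 8.83 (0.883), 7.32 (0.732) and 8.0 (0.800), a log2 difference of -0.27 and then 0.13, each within 2-fold. In anti-VLA-4 over standard diet all 3 probes lay between -0.35 and -0.14. With normexp the calls of probes 1 and 2 ended: they were -0.37 and -0.13 in HFD-IgG over standard diet, where the median of all probes moved to 0.54, and in anti-VLA-4 over HFD-IgG they were 0.24 and 0.25. Probe 3 was then -0.73 and 0.43. Which of the 3 probes stands for the spliced Gas5 RNA was not tested.

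**Figure D2:**
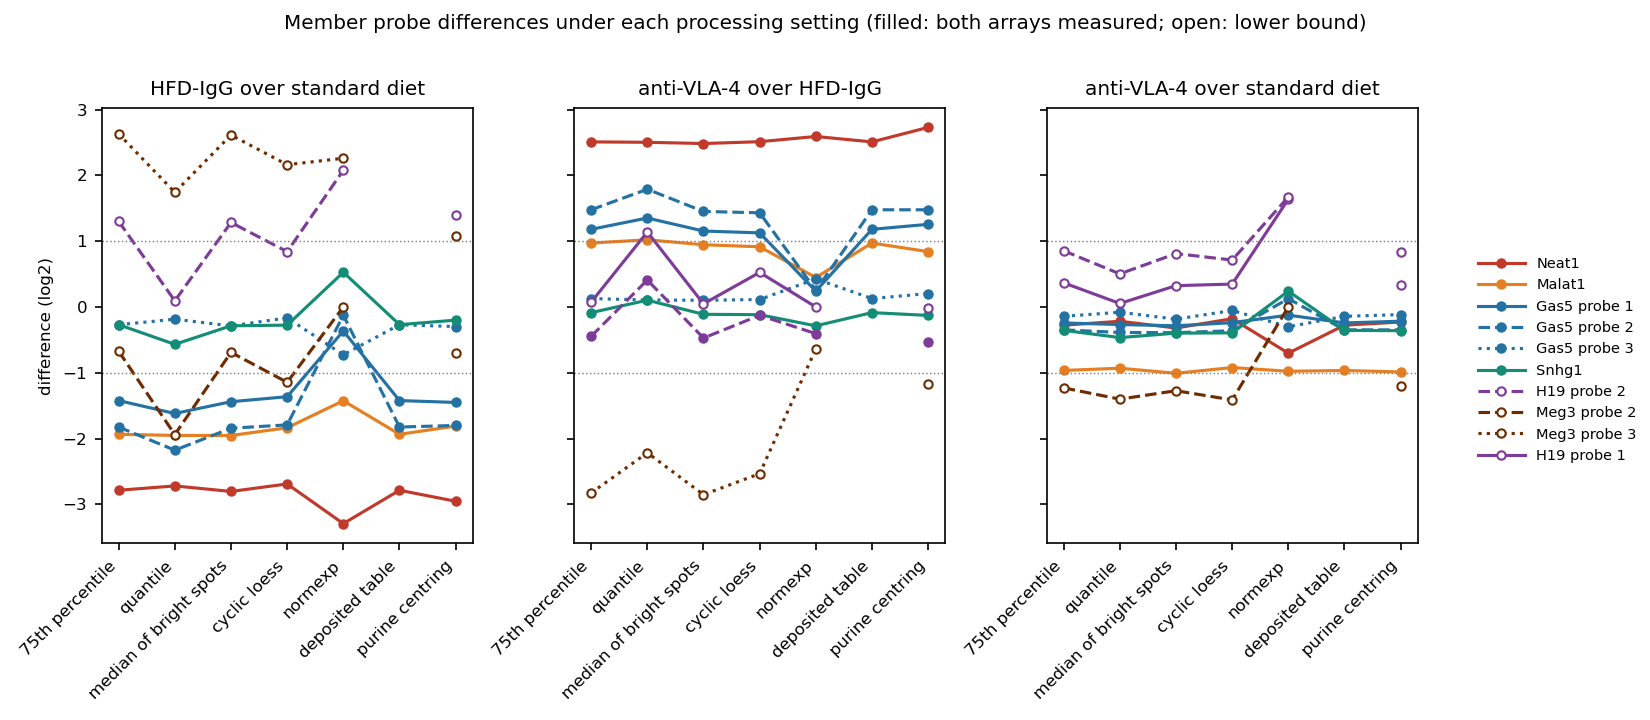
Log2 difference of each member probe (y axis) under 7 processing settings (x axis) in HFD-IgG over standard diet, anti-VLA-4 over HFD-IgG and anti-VLA-4 over standard diet; filled points were well above background on both arrays, open points are lower bounds, and dotted lines mark 2-fold. Neat1 stays between -3.29 and -2.69 in the first panel and between 2.48 and 2.73 in the second, while Gas5 probes 1 and 2 move to -0.37 and -0.13 with normexp.

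RefSeq lists a pair of Gas5 starts, and the one with matches to the cAMP response element, at chr1:161034916-161035215 (GRCm38.p6, plus strand), is shown with these letters in capitals.
Gas5 start: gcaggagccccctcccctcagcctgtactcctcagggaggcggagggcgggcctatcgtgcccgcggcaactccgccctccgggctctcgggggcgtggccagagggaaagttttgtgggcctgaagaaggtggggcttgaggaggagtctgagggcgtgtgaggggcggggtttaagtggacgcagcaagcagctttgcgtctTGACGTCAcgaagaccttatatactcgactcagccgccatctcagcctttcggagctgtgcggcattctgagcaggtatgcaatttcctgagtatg
The palindrome TGACGTCA began 46 bases before that start (-46), where its TGACG and CGTCA overlap, and GGGCGG or its complement occurred 3 times. The other Gas5 start, at chr1:161034351-161034650, held 0 matches to TGACG and 5 to GGGCGG. Next to Gas5, Zbtb37 was 0.39 in HFD-IgG over standard diet. Serpinc1, which encodes antithrombin, was -0.26 there and 0.13 in anti-VLA-4 over HFD-IgG. Neither passed 2-fold in these values, but Zbtb37 was 1.52 in HFD-IgG over standard diet with normexp and -0.51 with quantile scaling.

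Snhg1 was measured by 1 probe at chr19:8798913-8798972 (mm9, plus strand), which starts at base 89 of its transcript. Its relative signal was 0.346 (scanner error 0.0352), 0.287 (0.0297) and 0.271 (0.0276) on the standard-diet, HFD-IgG and anti-VLA-4 arrays. The standard-diet array was highest, and the HFD-IgG and anti-VLA-4 arrays differed by less than the scanner error. The log2 differences were -0.27, -0.09 and -0.36 in the 3 comparisons, none of them 2-fold, and with normexp they were 0.53 in HFD-IgG over standard diet and 0.24 in anti-VLA-4 over standard diet. Its start region at chr19:8723237-8723536 (GRCm38.p6, plus strand) held 0 matches to TGACG, 1 to TATAAA and 1 to GGGCGG. The neighbours Slc3a2, an amino acid transporter subunit, Wdr74, a ribosome assembly factor, and Stx5a, a Golgi syntaxin, lay at -0.25, -0.39 and -0.12 in HFD-IgG over standard diet.

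Most other host genes of small nucleolar RNAs stayed within 2-fold, as Snhg1 did. Of 20 listed, 12 were on the array and 10 could be compared. In HFD-IgG over standard diet 0 were at least 2-fold higher and 1 was lower, beside 20.4% and 2.41% of all genes, with a median of -0.23. Between anti-VLA-4 and HFD-IgG 0 were called either way, beside 18.4%, with a median of 0.20. The 1 lower gene was Snhg11, with relative signals of 0.306, 0.0668 and 0.125, 4.59-fold lower on the HFD-IgG array, but 0.53 on the log2 scale with normexp. Snhg12 had 1.36, 1.25 and 1.47, and Snhg16 1.13, 0.798 and 1.16, both named after their values were seen.

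The decay pathway and genes of ribosomes and translation gave no large difference either. Of 13 factors of nonsense-mediated decay that could be compared, 0 were 2-fold higher or lower in HFD-IgG over standard diet, beside 22.9% of all genes. Their median was -0.17. Upf1, the helicase of that pathway, named after its values were seen, had relative signals of 1.67, 1.76 and 1.68. Of 20 ribosomal and translation genes whose messages begin with the same 5′ terminal oligopyrimidine tract as Gas5, 0 were called in any comparison. The shares of all genes were 22.9%, 18.4% and 11.4%. Medians of the 20 were -0.14, -0.17 and -0.35. With normexp 3 of them were at least 2-fold lower in HFD-IgG over standard diet.

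**Figure D3:**
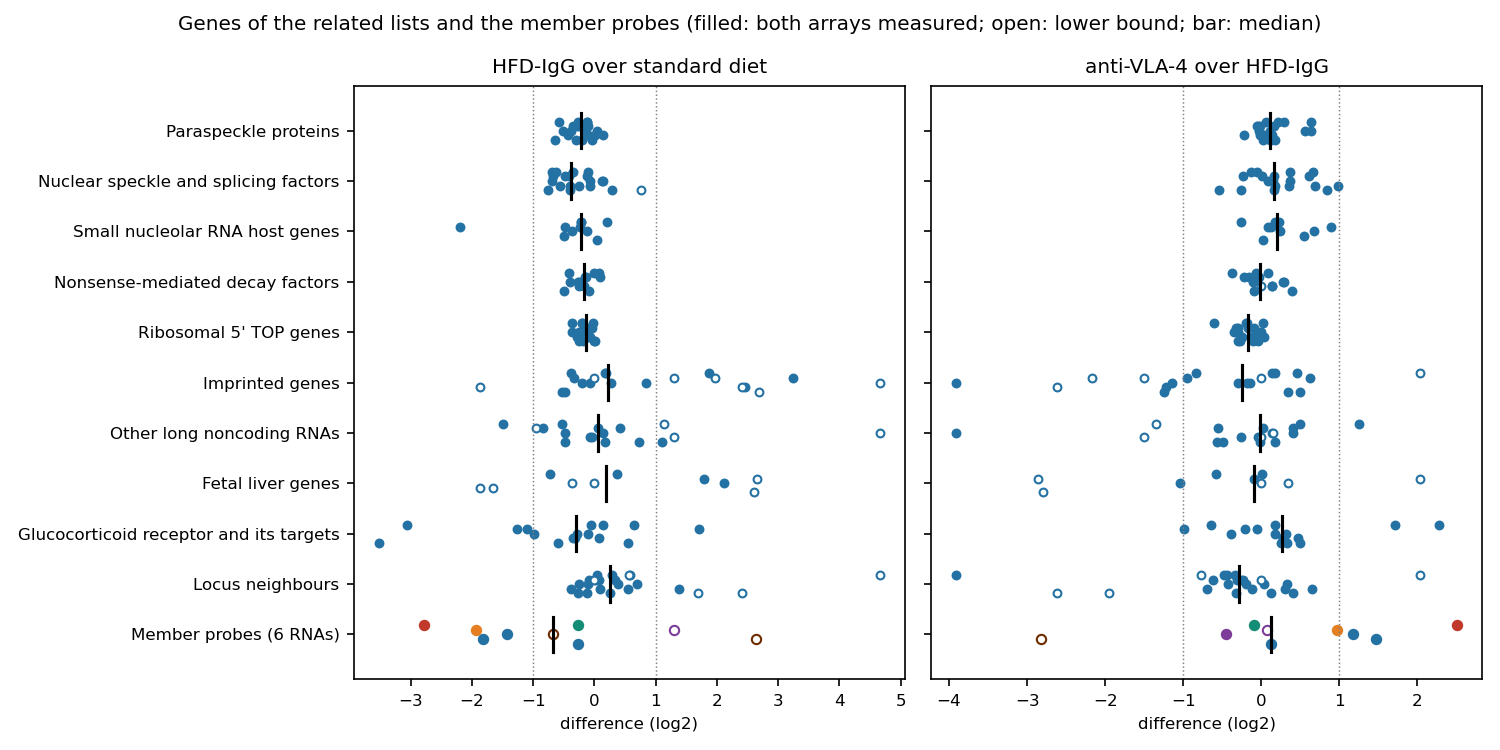
Log2 difference (x axis) of every compared gene of 10 related gene lists and of the 9 compared member probes (rows) in HFD-IgG over standard diet and in anti-VLA-4 over HFD-IgG; filled points were well above background on both arrays, open points are lower bounds, bars are medians, colours in the last row are those of the levels by probe, and dotted lines mark 2-fold. Paraspeckle proteins, speckle and splicing factors, decay factors and ribosomal genes all lie within 2-fold, while Neat1 lies at -2.79 and 2.51.

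H19 was measured by probe 1 at chr7:149762417-149762476 and probe 2 at chr7:149761492-149761551 (mm9, minus strand), both near background. Probe 1 had relative signals of 0.0222 (scanner error 0.00802) with standard diet, 0.00857 (0.00857) with HFD-IgG and 0.0332 (0.00625) with anti-VLA-4. It passed the background threshold with anti-VLA-4 alone. It gave no comparison of HFD-IgG with standard diet, and for anti-VLA-4 log2 bounds of 0.07 over HFD-IgG and 0.37 over standard diet, which leave a larger difference possible, and the first was 1.14 with quantile scaling. Probe 2 had 0.0177 (0.00801), 0.0634 (0.0110) and 0.0465 (0.00740), and with standard diet it was not well above background. Against standard diet the HFD-IgG array was higher by at least 2.46-fold (log2 1.30), a call that ended with quantile scaling at 0.09 and cyclic loess at 0.84. In anti-VLA-4 over HFD-IgG probe 2 was -0.45 (scanner error 0.34), or 0.41 with quantile scaling, and at least 0.85 higher on the log2 scale in anti-VLA-4 over standard diet. With normexp H19 probes 1 and 2 were 1.64 and 1.67 in that last comparison.

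Meg3 was measured by 3 probes, which disagreed. Probe 1 was not well above background on any array, with relative signals of 0.0133, 0.0262 and 0.0191. Probe 2 (chr12:110809678-110809737) was well above it on the standard-diet array alone, at 0.0526 (scanner error 0.00868), against 0.0330 (0.00847) and 0.0166 (0.00537). Probe 3 (chr12:110799558-110799617, mm9 and plus strand, as for probe 2), designed on another transcript than the first 2, was well above it on the HFD-IgG array alone, at 0.159 (0.0171), against 0.00546 (0.00523) and 0.0177 (0.00483).

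The highest array was therefore the HFD-IgG array for Meg3 probe 3 and the standard-diet array for probe 2. For probe 3 the HFD-IgG array exceeded the standard-diet array by at least 6.19-fold (log2 2.63), and its signal was at least 7.10-fold lower on the anti-VLA-4 than on the HFD-IgG array (-2.83). Probe 2 was at least 2.35-fold lower on the anti-VLA-4 than on the standard-diet array (-1.23), and -0.67 in HFD-IgG over standard diet, which passed 2-fold with quantile scaling (-1.94) and cyclic loess (-1.14). With normexp its value was 0.00 in both, and that of probe 3 in anti-VLA-4 over HFD-IgG was -0.64.

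The start of Meg3 with the cAMP response element, at chr12:109540746-109541045 (GRCm38.p6, plus strand), is printed for comparison with that of Gas5.
Meg3 start: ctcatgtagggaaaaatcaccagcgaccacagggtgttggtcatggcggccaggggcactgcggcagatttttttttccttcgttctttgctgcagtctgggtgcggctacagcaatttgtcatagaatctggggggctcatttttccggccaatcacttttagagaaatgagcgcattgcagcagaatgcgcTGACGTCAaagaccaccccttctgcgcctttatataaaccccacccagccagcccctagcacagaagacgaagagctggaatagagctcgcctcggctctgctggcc
TGACGTCA began 57 bases before it (-57), in a like place to that of Gas5. TATAAA or its complement occurred 2 times, beginning at -25 and -29, where the matches overlap. The other Meg3 start, at chr12:109545148-109545447, held 0 matches to any of the 4 motifs.

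Meg3 probe 3 was the member richest in purines, and the difference of a probe went with its purine share on these arrays. In HFD-IgG over standard diet the 176 probes with over 70% and up to 75% purines had a median of 1.54, with 62.5% at least 2-fold higher and 0% lower. Their median in anti-VLA-4 over HFD-IgG was -1.66, with 62.5% lower. After subtracting the median of probes with like purine share, Meg3 probe 3 stood at 1.08 and -1.17, Neat1 at -2.95 and 2.73, Malat1 at -1.81 and 0.84, and Gas5 probes 1 and 2 at -1.45 and 1.26, and at -1.80 and 1.48. The part of purine share in the Meg3 difference was not tested. The plot of differences against purine share sets each member among all probes.

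**Figure D4:**
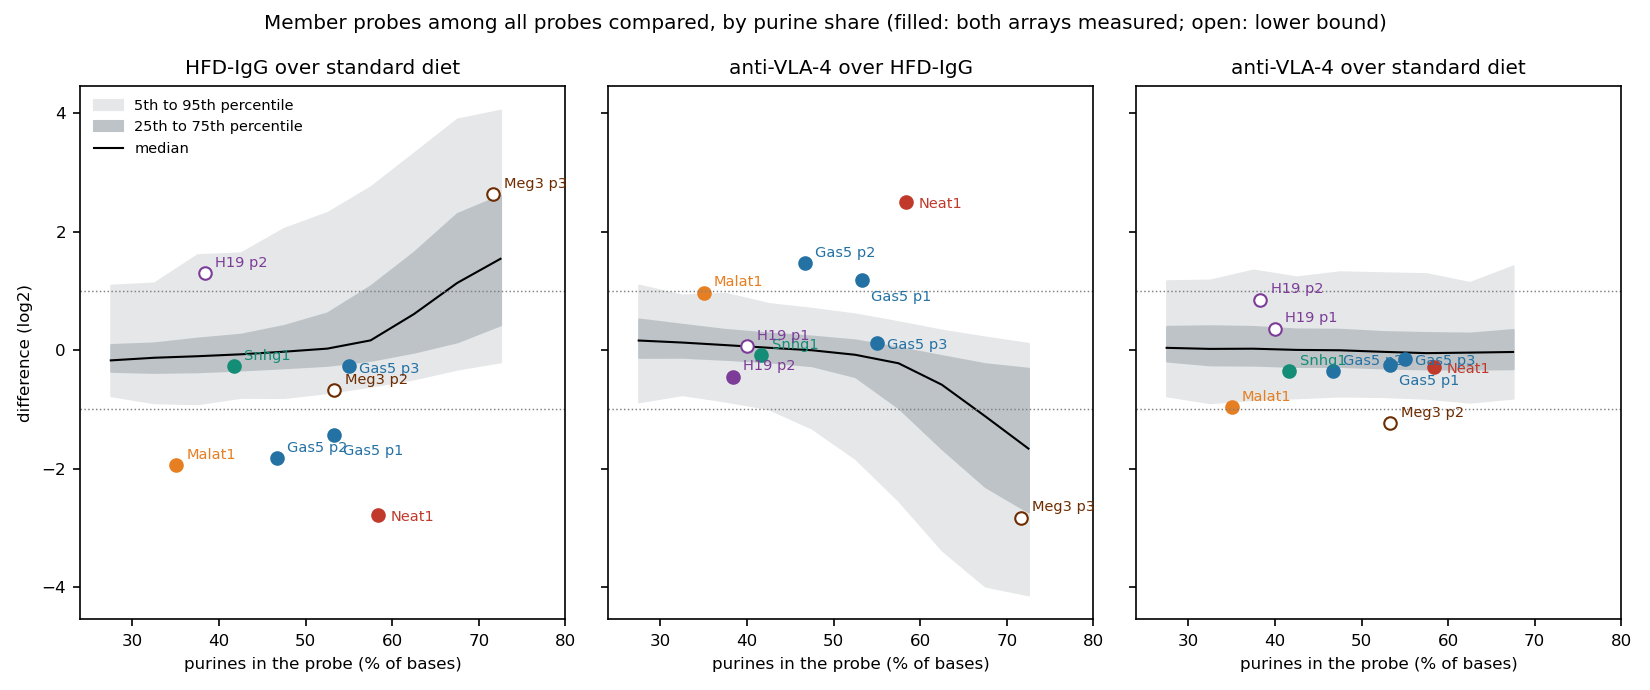
Log2 difference (y axis) against the share of purines in the probe (x axis, % of bases) for the member probes in the 3 comparisons; bands are the 5th to 95th and 25th to 75th percentiles and lines the medians of all compared probes in bins of 5 percentage points with at least 100 probes, filled points were well above background on both arrays and open points are lower bounds. The median climbs to 1.54 at the purine-rich end in HFD-IgG over standard diet, where Meg3 probe 3 lies at 2.63, while Neat1, Malat1 and Gas5 probes 1 and 2 lie below the 5th percentile of their bins in that panel.

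Genes of the imprinted domain that holds Meg3 on chromosome 12 were low on the standard-diet and anti-VLA-4 arrays as well. Mirg, a noncoding RNA of the same domain that carries microRNAs, was measured by 2 probes, with relative signals of 0.0323, 0.815 and 0.0544 for the brighter and 0.0262, 0.122 and 0.0147 for the other. The HFD-IgG array was the highest for both, by at least 25.2-fold and by 4.68-fold over standard diet. Rtl1, a retrotransposon-derived imprinted gene, had 0.00561, 0.137 and 0.00453, with HFD-IgG over standard diet higher by at least 5.33-fold. Purines made up 56.7% and 61.7% of the Mirg probes and 63.3% of the Rtl1 probe, and their part in these differences was not tested. Dlk1, the paternally expressed gene of that domain, was near background on all 3 arrays, with 0.0314, 0.0190 and 0.0272. Igf2, the paternally expressed partner of H19, had 0.0107, 0.0267 and 0.130, and the anti-VLA-4 array exceeded the standard-diet array, where Igf2 was not well above background, by at least 5.04-fold.

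Other long noncoding RNAs were taken from a list of 40. Of these, 24 were on the array and 17 could be compared in HFD-IgG over standard diet, with 4 at least 2-fold higher, 1 lower and a median of 0.05, beside 20.4% and 2.41% of all genes and their median of 0.04. Of 18 compared in anti-VLA-4 over HFD-IgG, 1 was higher and 3 lower, beside 1.9% and 16.5% of all genes. Mir17hg, the host transcript of the miR-17 cluster, was the 1 RNA of the list called lower in the first and higher in the second comparison. Its relative signals were 0.357, 0.127 and 0.304, 2.80-fold lower and then 2.38-fold higher, but 0.20 and 0.02 on the log2 scale with normexp. Of the higher calls, Gm4419, Nespas and Hoxa11os ended with quantile scaling, at 0.10, 0.00 and 0.41, and with cyclic loess. Kcnq1ot1, an antisense RNA of an imprinted domain, had 0.409, 0.283 and 0.401, Tug1 0.513, 0.366 and 0.361, and Pvt1 0.245, 0.238 and 0.199, all within 2-fold and named after their values were seen.

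Markers of 7 other cell types were summed on the same arrays. The 14 Kupffer cell and macrophage markers had a summed relative signal of 11.2, 73.5 and 55.8 on the standard-diet, HFD-IgG and anti-VLA-4 arrays, and with HFD-IgG 14 of 14 were at least 2-fold higher than with standard diet. Sinusoidal endothelial markers summed to 18.4, 77.5 and 43.9, with 12 of 14 higher, and stellate cell and fibroblast markers to 3.54, 33.3 and 16.5, with 12 of 14 higher and 5 of 14 well above background with standard diet. Cholangiocyte markers summed to 0.504, 0.865 and 0.714, and their genes were split. Of 5 compared, 3 were at least 2-fold higher and 0 lower with HFD-IgG than with standard diet, or 2 and 2 with quantile scaling. Spp1 (0.0854, 0.352 and 0.448) was highest on the anti-VLA-4 array. The Krt7 and Epcam values were lower bounds from probes of 65% and 71.7% purines, and Krt19 and Sox9 lay at -0.23 and -0.73. The other sums took another course. T and NK cell markers had 4.03, 3.52 and 3.80, lowest on the HFD-IgG array, mostly from Cd3e and Nkg7. Yet of 5 compared in HFD-IgG over standard diet, 2 were at least 2-fold higher and 0 lower. Neutrophil and monocyte markers had 0.602, 1.29 and 2.94, and erythroid markers 10.8, 13.97 and 15.7, both highest on the anti-VLA-4 array. The neutrophil and monocyte genes were split. Of 7 compared in anti-VLA-4 over HFD-IgG, S100a8 and S100a9 were at least 2-fold higher, and Cxcr2 and Ccr2 at least 2-fold lower. Alas2 gave 9.09, 13.3 and 14.9 of the erythroid sums. Hba-a1 and Hbb-b1 were at least 2-fold lower than with standard diet on both other arrays, and 0 of 4 compared were higher. Sox9, Cd3e, Nkg7 and Alas2 are named after their values were seen. Neat1, Malat1 and Gas5 probes 1 and 2 had their lowest value on the HFD-IgG array, where the sums of macrophage, endothelial, stellate cell and cholangiocyte markers were highest. Meg3 probe 3 had its highest value there. Fewer cells of a type and less RNA per cell cannot be told apart in such preparations, and the part of other cells in the member differences was not tested.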

How the data were processed

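The data are 3 one-colour (Cy3) arrays of hepatocyte RNA, 1 for each group of mice. Spot intensities come from Agilent's scanner software, Feature Extraction version 11.0.1.1 in the submitters' processing notes, after background subtraction and detrending of each array, per the file headers. Per the file headers, that software also set the other values used, the spot flags and the class of being well above background. For 23206 spots the authors also deposited a table of linear ratios. It was checked against the scanner files: the intensity over the 75th percentile of the array's non-control spots gives every value to within a relative 2e-08, and its column medians are 0.787, 0.796 and 0.810. It holds 6 of the 11 member probes, and 0 of its columns were left unmatched. Probe positions are on build mm9, per the file headers.

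The same division was made here from the scanner files, with 75th percentiles of 574, 500.3 and 514 on the standard-diet, HFD-IgG and anti-VLA-4 arrays, and log2 was taken. Non-uniform spots and population outliers were dropped before averaging the spots of a probe. Comparison of a probe needed a signal well above background on 1 array or both. If the dimmer signal did not reach it, the brighter one was set against the lowest signal on the dimmer array that did, or against the dimmer signal if that was higher; this lower bound is worded "at least N-fold". A log2 bound of 0 means that no fold could be given. A listed gene took its brightest probe, by its array name or its current RefSeq symbol (26055 of 39429 probes, 66.1%, were named by accession).

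A single array per group allows no test, so a difference of at least 2-fold was counted. The scanner error is that of 1 spot and leaves out mice, preparations and hybridisations, and the number of arrays limits the precision. The members and lists were chosen with earlier results of these data known. The rule for named genes took all members with every probe, up to 4 genes a list that were at least 2-fold different, the measured neighbours on the chromosome, and the 5 genes nearest to Neat1. Other genes are named as chosen after their values were seen. The main scaling and the 2-fold count were tested on arrays simulated from the standard-diet array, with changes planted in probes well above background. The lower-bound rule and the alternative settings were not tested in that way. Alternatives were quantile scaling, scaling to the median of bright spots, cyclic loess, normexp background correction with offset 50, the deposited table, centring by purine share, other filters and a 1.5-fold threshold. Bright spots are those well above background on every array. Tools were limma 3.58.1 in R 4.3.3, and numpy 2.4.6, pandas 2.3.3 and matplotlib 3.10.9 in Python 3.11.15. Sequences of start regions are from RefSeq on GRCm38.p6, those of probes from the array files. The values of 2 neighbours and 1 probe's sequence and position are not reported here.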

Additional observations from a re-analysis of the deposited data

How the results depend on the processing

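Neat1 stayed past 2-fold, in the same direction, under each of the 6 alternatives run, between -3.29 and -2.69 in HFD-IgG over standard diet and between 2.48 and 2.73 in anti-VLA-4 over HFD-IgG. The ends -3.29 (normexp) and 2.73 (centring by purine share) lay beyond the scanner error of the main value, as did -0.70 with normexp in anti-VLA-4 over standard diet. Of 135 values of the other member probes, 27 moved by more than the scanner error and 0 of the called ones turned sign. With normexp the count of members at least 2-fold different was 1 against 4 in anti-VLA-4 over HFD-IgG. In anti-VLA-4 over standard diet it was 1, against 2 with the median of bright spots and with normexp, 0 with the deposited table and when both arrays had to be well above background, and 3 with no filter on dim probes and with a 1.5-fold threshold. Normexp also moved the noncoding probes called, from 98 to 205, from 83 to 5 and from 36 to 139 in the 3 comparisons, and the list genes called, from 26 to 47, from 17 to 4 and from 19 to 30. Among named list genes, 6 of 796 values reversed, all with normexp: Snhg11 0.53 and 0.29 in HFD-IgG and in anti-VLA-4 over standard diet, Mir17hg 0.20, Chsy3 1.04 in the first comparison and -0.23 in the second, and Dio3os 0.70 in anti-VLA-4 over standard diet. Of all probes called, 89.4% were higher in HFD-IgG over standard diet, against 44.7% with quantile scaling and 78.7% with cyclic loess. In anti-VLA-4 over HFD-IgG the share was 10.5%, against 56.2% with quantile scaling and 34.1% with normexp, and in anti-VLA-4 over standard diet 69.9%, against 56.4% and 94.1%. The median of all probes in the 3 comparisons was 0.54, -0.16 and 0.33 with normexp, against 0.03, -0.07 and -0.003 in the main setting. The cause of these moves was not tested. No paired analysis was possible because each group holds 1 array, so fewer than 2 replicate numbers are shared, and no replicate could be left out for the same reason. H19 and Meg3 lie near background, where scanner error reached 100% of the signal, and their levels that were not well above background have no order among themselves.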

Other observations

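Genes that mark fetal liver, where H19 is abundant, were mostly near background. In HFD-IgG over standard diet 10 of 14 could be compared. Of these 4 were at least 2-fold higher and 2 lower, beside 20.4% and 2.41% of all genes. With quantile scaling 4 were higher and 5 lower, and with normexp 5 and 0. The 2 lower in the main setting were Gpc3, by at least 3.14-fold, and Peg3. Afp, the fetal serum protein, had relative signals of 0.104, 0.135 and 0.0905 on the standard-diet, HFD-IgG and anti-VLA-4 arrays, all within 2-fold (named after its values were seen), although HFD-IgG over standard diet was 1.49 on the log2 scale with normexp and -0.34 with quantile scaling, and anti-VLA-4 over standard diet was 1.06 with normexp. Scd2, a fatty acid desaturase of fetal liver, was 4.34-fold higher on the HFD-IgG than on the standard-diet array, with 0.0611, 0.265 and 0.129. Lin28b, a repressor of let-7 microRNAs, had 0.00593, 0.163 and 0.00518 and was higher there by at least 6.33-fold, and Epcam 0.00744, 0.156 and 0.0131. The Epcam probe held 71.7% purines, the same share as Meg3 probe 3. Of 20 imprinted genes compared, 8 were higher and 1 lower, beside 20.4% and 2.41% of all genes. Decorin (Dcn), a matrix gene that is also one of the stellate cell markers, had 1.39, 13.1 and 6.76. Peg3 was at least 3.63-fold lower (0.115, 0.0151 and 0.0175), but 0.00 on the log2 scale with normexp.

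Gas5 RNA is known to bind the glucocorticoid receptor, so targets of that receptor were listed. Nr3c1, the receptor itself, had relative signals of 8.12, 8.99 and 10.1 (named after its values were seen). Of 16 genes 1 was at least 2-fold higher and 4 were lower in HFD-IgG over standard diet, beside 20.4% and 2.41% of all genes. In anti-VLA-4 over HFD-IgG 2 were higher and 0 lower, beside 1.9% and 16.5%. The lower ones in HFD-IgG over standard diet were Zbtb16 (11.4-fold), Igfbp1, Cdkn1a (2.39-fold) and Fkbp5 (2.14-fold, or -0.99 on the log2 scale with cyclic loess). The higher one there was Dusp1 (3.27-fold). Zbtb16 stayed low on the anti-VLA-4 array, with 5.04, 0.441 and 0.556, whereas Igfbp1 had 61.2, 7.31 and 35.4. Mt2, a metallothionein, had 26.5, 25.6 and 84.0. No relation between Gas5 and these genes was tested.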
